A study of Mus musculus with 2 samples.

Results

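The cells described here are the surfactant-rich alveolar type 2 (AT2) cells of the postnatal day 10 (P10) library of a mouse lung single-cell RNA series, and the subject is how they differ from one another. They were chosen by measured values. UMIs (unique molecular identifiers) each stand for 1 captured transcript molecule. P10 barcodes with 500 genes or more, 1000 UMIs or more and a mitochondrial share of no more than 20% were kept. A kept cell belonged to the set when Sftpc held at least 8% of its UMIs, Saa3, Lcn2, Orm1 and Lrg1 together held under 0.8%, Areg and Sfn together held under 0.08%, and no Ptprc UMI was seen. This gave 8006 cells, 56.8% of the 14086 kept P10 cells and part of 26113 kept cells in the series.

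AT2 cells line the alveoli with AT1 cells, make and recycle pulmonary surfactant, and serve as progenitors of the alveolar epithelium. Surfactant is a film of phospholipid, rich in saturated chains, and of the proteins SFTPA, SFTPB, SFTPC and SFTPD; its lipid is loaded into lamellar bodies by ABCA3 and secreted with the small hydrophobic proteins. Making it draws on fatty acid and sterol synthesis, which SREBP transcription factors control. ATF3 is a transcription factor that many kinds of cell stress induce.

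The series compared 2 ages, P10 and E18.5, with 1 library each, so no difference in this text has a replicate and no test was made. The labels call the tissue embryonic lung in both libraries, the P10 one too, and the ages used here are those of the time point label. Mice carried a tamoxifen-inducible Cre at the Cdh16 locus, Cdh16CreERT2, with a floxed tdTomato reporter, which the labels give as tdTomatoflox/flox and the series' design as 1 floxed copy at R26. Tamoxifen was given to the pregnant mothers by injection or diet starting on embryonic day 12.5, and both ages had it. The sorted cells were tdTomato-positive and CD326 (EpCAM)-stained cells of digested lung; the sources used here do not say how many animals were pooled. The sort was for cells labelled through Cdh16 expression; labelling was not checked here, there was no unlabelled control, and the P10 library also held lymphoid cells, described below. All intervals below are 95% exact intervals for counting error only; cells of 1 library are not replicates of a condition.

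The 8006 cells held 97893194 of the P10 library's 171205348 UMIs, with a median of 10389 UMIs and 3156 genes per cell and a median mitochondrial share of 1.63%. No doublet caller was run. In 19.54% of the cells both Xist and a Y-linked gene had a UMI, with a median of 13932.5 UMIs per cell against 10233 in cells with only one kind. Xist alone was seen in 56.1% of the cells and Y-linked genes alone in 13.5%. Between the libraries 59 barcodes were shared, 25 of them in the set. The rule left out 417 barcodes of low quality, and 11399 kept cells passed the Sftpc condition alone.

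The label was checked against the fixed markers. Levels in this paragraph are UMIs of a gene per 1000000 UMIs of all genes (CPM). Sftpa1 stood at 16309 in the set, against 13159 in all other kept P10 cells and 7676 in the 1215 E18.5 cells that meet the same rule. Sftpb stood at 7066, against 5066 in other P10 cells and 2974 in E18.5 cells. Both encode surfactant proteins, and the rule did not use them. Abca3, the lamellar body lipid transporter, stood at 576, against 409 in other P10 cells and 297 in E18.5 cells. Slc34a2, the phosphate transporter of AT2 cells, stood at 2405, against 1673 in other P10 cells and 1127 in E18.5 cells. All 4 were higher in the set than in both other populations, and the label was kept. At E18.5, 2373 of the 3662 cells that passed the Sftpc condition failed the Areg and Sfn limit, against 1357 of 11399 at P10. The E18.5 cells of the rule are therefore a minority of the Sftpc-rich cells of that age. Markers of other cells were low but not at 0: Foxj1 of ciliated cells was at 0.981 CPM, Cdh5 of endothelium at 7.88, Col1a1 of fibroblasts at 11.9 and the AT1 gene Pdpn at 3.53.

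Free RNA was gauged in 593 P10 lymphoid cells, chosen after the data were seen: outside the set, with a Ptprc UMI, at least 3 UMIs of B or T/NK cell markers and under 3% Sftpc. Their median Sftpc share was 1.93%, at a median of 4127 UMIs per cell. Scgb1a1, the main secretory protein of club cells, stood at 1869 CPM in the set but at 20368 CPM, taken over UMIs other than Sftpc, in the lymphoid cells, so its level in the set is read as background. Lyz2, by contrast, stood at 2563 in the lymphoid cells, against 16071 or more on the same scale in every Sftpc group described below.

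Cells just inside each limit were compared with those just outside. The 115 cells with 8 to 9% Sftpc had a median of 9472 UMIs, with Sftpa1 at 12524 CPM and Abca3 at 499; the 111 cells with 7 to 8% had a median of 3542 UMIs, with Sftpa1 at 11094 and Abca3 at 515. The 112 cells with 0.7 to 0.8% acute-phase genes had a median Sftpc share of 14.6%, as had the 95 cells with 0.8 to 0.9%. The 549 cells with 0.06 to 0.08% Areg and Sfn had a median Sftpc share of 14.3% and Atf3 at 3342 CPM; the 323 cells with 0.08 to 0.1% had 13.9% and 3543 CPM. Cells on both sides were close in these values, apart from the lower depth of the cells with 7 to 8% Sftpc.

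Sftpc, the precursor of the hydrophobic surfactant protein C, took 14.8% of all UMIs of the set. Its share per cell averaged 14.96% with an SD of 2.57 percentage points over cells, and ran between 8.01 and 23.9%. Counting error alone would give an SD of 0.358 percentage points, so the spread between cells was wider than counting. In the E18.5 cells of the rule the share averaged 13.5% with an SD of 3.79 percentage points. These values follow from the choice of cells and are a description.

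**Figure D1:**
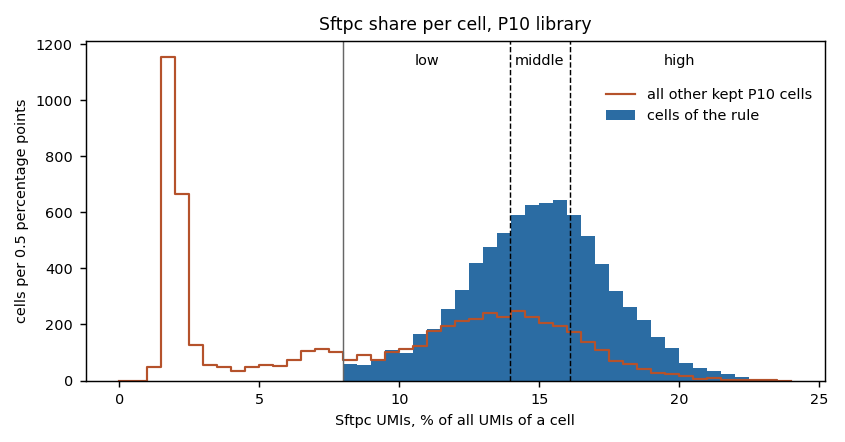
Number of P10 cells (vertical axis) by Sftpc share of a cell's UMIs in percent (horizontal axis, steps of 0.5 percentage points), for the 8006 cells of the rule (bars) and all other kept cells (line). The cells of the rule form 1 broad peak around the mean of 14.96%, bounded below by the 8% limit.

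The cells were ranked by Sftpc share and cut into 3 groups of 2669, 2669 and 2668 cells, with limits at 13.9 and 16.1%, called low-, middle- and high-Sftpc cells here. Their median shares were 12.5, 15.03 and 17.4%. To keep Sftpc from diluting all other genes, levels in the groups are per 1000000 UMIs other than Sftpc (also written CPM), from the summed counts of each group, and a ratio is high over low. Median UMIs per cell were 10607 in low-, 10517 in middle- and 10134 in high-Sftpc cells, and median detected genes, not thinned to a common depth, were 3269, 3188 and 3051.5. Ratios were small: of 3463 genes whose mean was 50 CPM or more, 2 were at least 1.5-fold higher in high-Sftpc cells (0.0578% of those measured) and 43 were at least 1.5-fold lower (1.24%). Gene lists were read at a smaller size, the list limit, which is a ratio 25% above 1, or 20% below 1, in genes at 10 CPM or more in either group. Past it, 269 of 8555 genes were higher (3.14%) and 918 lower (10.7%), with a median log2 ratio of -0.04 over them. In the E18.5 cells split the same way, 1048 of 8505 were higher (12.3%) and 2819 lower (33.1%).

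Of 14 measured surfactant and lamellar body genes other than Sftpc, 1 was past the list limit higher and 0 lower, with a median log2 ratio of 0.18. Sftpa1, a collectin that also binds microbes, stood at 17175 CPM in low-, 19494 in middle- and 21208 in high-Sftpc cells, a ratio of 1.23 (1.23 to 1.24). Sftpb, needed for the surfactant film, stood at 7466, 8420 and 9189 CPM in the same order, also 1.23. Abca3 stood at 629, 690 and 719 CPM, a ratio of 1.14 (1.12 to 1.17). Levels stepped up in the same order in all of these genes. Napsa, the aspartic protease that processes pro-SFTPB and pro-SFTPC, was the one gene of the list past the list limit, at 1750 CPM in low-, 2081 in middle- and 2371 in high-Sftpc cells, a ratio of 1.35 (1.34 to 1.37). Slc6a14, an amino acid transporter, ran the other way with a ratio of 0.818.

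Scgb1c1, a secretoglobin, led the 12 genes with the highest ratios. It stood at 63.5 CPM in low-, 83.8 in middle- and 106 in high-Sftpc cells, a ratio of 1.66 (1.57 to 1.77). Apoc1, an apolipoprotein, stood at 127, 156 and 197 CPM in the same order, a ratio of 1.55 (1.48 to 1.61). These were the 2 genes past 1.5-fold. Elovl1, which elongates very long-chain fatty acids, stood at 223, 274 and 332 CPM, a ratio of 1.49, and Fabp5, a fatty acid carrier, at 1622, 2022 and 2292 CPM, a ratio of 1.41. Cxcl15, a chemokine of lung epithelium, stood at 2929, 3561 and 4165 CPM, a ratio of 1.42. The lysozyme genes Lyz1 (1.49) and Lyz2 (1.38), the adaptor gene Bex2 (1.43), the neuropeptide gene Npw (1.42), the transferrin gene Trf (1.40), Lrg1 (1.42) and the MHC class II gene H2-Ab1 (1.39) complete the 12. Lrg1 is 1 of the genes that the rule caps. In the E18.5 cells split the same way, 11 of the 12 could be measured and all 11 were at least 25% higher in high-Sftpc cells, against 12.3% of all genes; the E18.5 cells are another age, not a replicate.

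Among the 12 genes with the lowest ratios, the first pair were extracellular matrix genes. Mgp, matrix Gla protein, stood at 91.1 CPM in low-, 18.7 in middle- and 18.49 in high-Sftpc cells, a ratio of 0.203, and Eln, elastin, at 135, 44.8 and 41.0 CPM, a ratio of 0.304. Both were high in the low-Sftpc cells alone, with the other two groups nearly equal. Once cells with UMIs of other cell types' markers were left out (Scgb1a1 not among them), the ratio was 1.33 for Mgp and 1.05 for Eln, the opposite direction. Most of the others declined step by step, but S100a6 did not, at 98.01, 53.4 and 53.6 CPM. Ptpn14, a tyrosine phosphatase of the Hippo pathway, stood at 78.2, 52.4 and 34.2 CPM, a ratio of 0.437 (0.404 to 0.474). Lgals3, galectin 3, stood at 159, 110 and 87.4 CPM, a ratio of 0.549, and Ccn1, a matricellular protein, at 195, 149 and 114 CPM, a ratio of 0.586. The remaining genes were Ier5 (0.545), S100a6 (0.547), Thbs1 (0.563), Zwint (0.568), Maff (0.575), Samd4 (0.579) and Hdac9 (0.584). At E18.5, 10 of the 12 were at least 20% lower in high-Sftpc cells, against 33.1% of all genes.

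**Figure D2:**
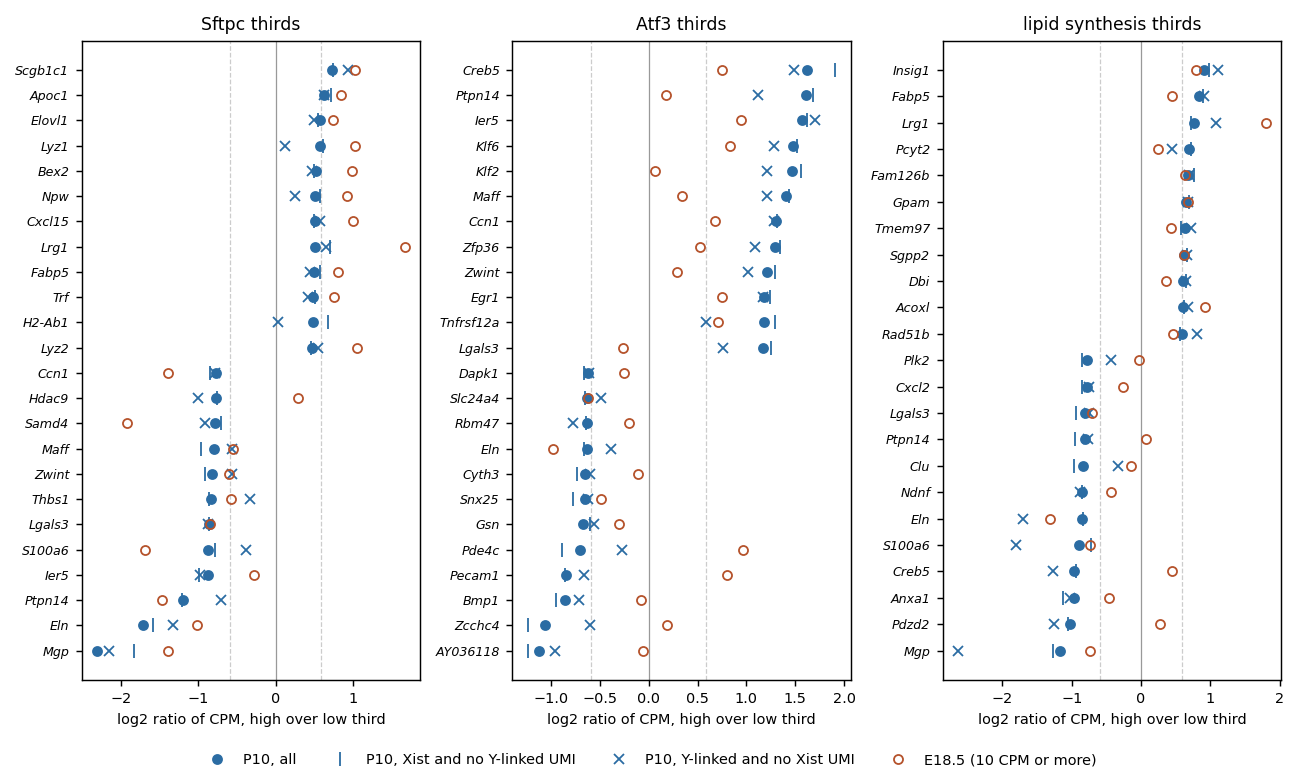
Log2 ratio of CPM, high over low group (horizontal axis), for the named genes (vertical axis) of the splits by Sftpc, Atf3 and lipid synthesis enzymes. Filled points are all P10 cells, bars and crosses the cells with only Xist or only Y-linked UMIs, and open points the E18.5 cells split the same way; a few points, such as Pecam1 and Pde4c in the Atf3 panel, lie on opposite sides of 0 at the 2 ages.

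Gene lists described the same axis. All 6 measured MHC class II genes, which present peptides to CD4+ T cells, were past the list limit higher with Sftpc, with a median log2 ratio of 0.43. Cd74, the invariant chain, stood at 1148 CPM in low-, 1249 in middle- and 1539 in high-Sftpc cells, a ratio of 1.34 (1.32 to 1.36), and H2-Aa at 224, 247 and 302 CPM, a ratio of 1.35. The size varied with the sex transcripts: among cells with Xist alone all 6 were past the list limit and the median was 0.60, while among cells with Y-linked genes alone 0 of 6 were and the median was 0.07. The list's sum was 2205 CPM in high- and 1643 in low-Sftpc cells, against 4215 in the lymphoid cells, which include B cells, a type that makes class II; the part of free RNA in the result was not tested. At E18.5, 3 class II genes could be measured and all 3 were past the list limit higher.

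Genes of energy metabolism and protein turnover had few members past the list limit. Of 20 nuclear genes of the respiratory chain, 2 were past the list limit higher and 0 lower, with a median log2 ratio of 0.24; Cox6c, a cytochrome c oxidase subunit, stood at 256 CPM in low-, 287 in middle- and 325 in high-Sftpc cells, a ratio of 1.27. Lysosomal genes (0 of 19 past the list limit) had a median log2 ratio of 0.15, and ribosomal protein genes (0 of 86) also 0.15. Of 16 hypoxia and glycolysis genes 1 was higher and 0 lower. Of 17 sterol enzymes 0 were past the list limit in either direction (median 0.17), and of 11 fatty acid synthesis genes 1 was higher, Elovl1 above (median 0.07). Scd1, the stearoyl-CoA desaturase, stood at 1581 CPM in low-, 1789 in middle- and 1770 in high-Sftpc cells, and Fasn, fatty acid synthase, at 449, 474 and 472 CPM. Chka, choline kinase of phosphatidylcholine synthesis, was lower with a ratio of 0.727.

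Immediate early, transitional-state and antioxidant genes had members lower in high-Sftpc cells, while heat shock and endoplasmic reticulum stress genes had few past the list limit. Of 26 immediate early genes, which respond quickly to growth and stress signals, 15 were past the list limit lower and 0 higher, with a median log2 ratio of -0.40. Atf3 itself, a stress-induced bZIP repressor, stood at 3010 CPM in low-, 2538 in middle- and 1875 in high-Sftpc cells, a ratio of 0.623 (0.616 to 0.630). Klf6 stood at 1116, 919 and 673 CPM, a ratio of 0.603. At E18.5, 15 of 27 immediate early genes were past the list limit lower and 1 higher, against 33.1% and 12.3% of all genes. Of 12 genes of the AT2-to-AT1 transitional state, 7 were lower and 0 higher (median -0.44), Krt8 keratin at 338, 307 and 257 CPM among them. Of 8 antioxidant genes, 4 were lower and 0 higher, and of the 4 nuclear-retained RNAs 2 were, Neat1 at 3539 CPM in low-, 2902 in middle- and 2253 in high-Sftpc cells. Malat1 had a ratio of 0.859. Of 9 heat shock genes 1 was lower and 0 higher, and of 14 endoplasmic reticulum stress genes 1 was higher and 1 lower (median 0.01).

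AT1 genes did not move as 1 group. Ager, the receptor for advanced glycation end products, was higher with Sftpc at 709 CPM in low-, 787 in middle- and 895 in high-Sftpc cells, a ratio of 1.26 (1.24 to 1.29). Cav1, the caveolar coat protein, was lower at 24.6, 10.96 and 7.49 CPM, a ratio of 0.305, and Hopx, a homeodomain protein, at 36.6, 25.03 and 18.9 CPM, a ratio of 0.516. Of 11 measured AT1 genes 6 were past the list limit lower and 1, Ager, higher. At E18.5 all 13 measured were lower, Ager too with a ratio of 0.387, and the median log2 ratio was -1.92.

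Markers of some other cell types were lower in high-Sftpc cells. Fibroblast markers summed to 150 CPM in low-, 48.6 in middle- and 45.1 in high-Sftpc cells, against 237 in the lymphoid cells; all 4 measured of 7 listed were lower. Endothelial markers summed to 200.5, 121 and 115 CPM (5 of 6 measured lower, 8 listed), contractile cell markers to 78.6, 34.9 and 35.3, and erythroid markers to 181, 52.4 and 55.6. Not all lists had that order: neutrophil markers summed to 116, 124 and 123 CPM, B cell markers to 49.7, 47.8 and 51.4, and macrophage markers to 16159, 19428 and 22278, nearly all of it Lyz2, which AT2 cells also express. Of the other 5 measured macrophage markers 0 were higher and 1, Csf1r, was lower. The share of cells with both Xist and Y-linked UMIs was 22.0% in low-, 21.1% in middle- and 15.6% in high-Sftpc cells. The part of such cells in the results above was not tested beyond leaving them out. Without cells holding other types' markers (Scgb1a1 not among them), 64 genes were 1.5-fold lower, 30 of them among the 43, and 8 were higher; the medians were -0.47 for immediate early, -0.43 for transitional, -0.27 for AT1 and 0.57 for MHC class II genes.

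Equal bins, 10 in all, along the Sftpc share showed which changes were gradual. In the lowest bin, at a median Sftpc share of 10.54%, fibroblast markers summed to 327 CPM, against 74.0 in the next bin and 46.3 in the highest, at 19.1% Sftpc. Endothelial markers summed to 349, 172 and 113 CPM in those bins. These marker sums were concentrated in the lowest bin. Atf3 stood at 3207 CPM in the lowest bin, 3059 in the next, 2530 in the fifth and 1591 in the highest. Sftpa1 stood at 15098, 17487, 19443 and 22250 CPM, and Lyz2 at 13226, 16489, 18859 and 23735 CPM, in the same bins. MHC class II genes summed to 1582, 1640, 1710 and 2542 CPM, most of the difference lying between the fifth and the highest bin.

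**Figure D3:**
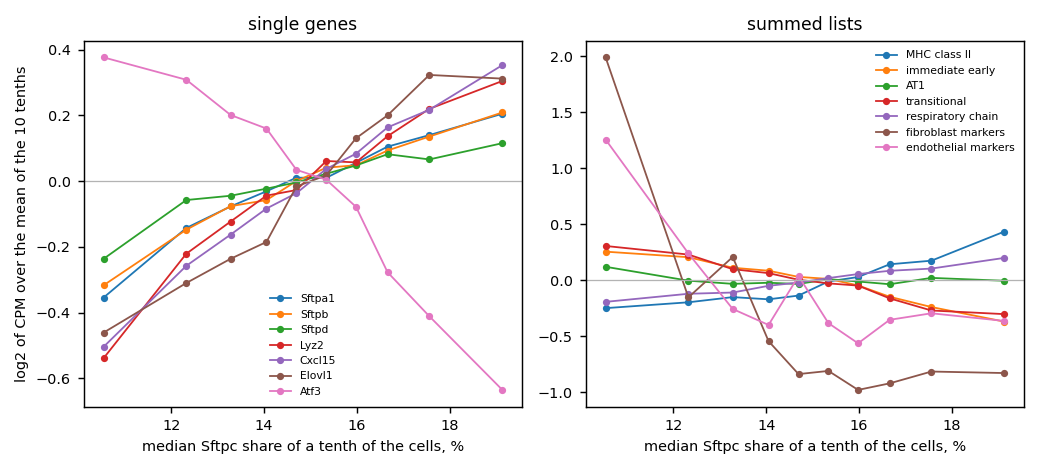
Log2 of CPM over the mean of the 10 bins (vertical axis) against the median Sftpc share of each bin of 800 or 801 cells (horizontal axis, percent), for single genes and for summed gene lists. Sftpa1 and Lyz2 climb and Atf3 declines along the whole range, while fibroblast and endothelial markers stand out in the lowest bin, at 327 and 349 CPM.

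Atf3 was then used to order the cells. Each cell was thinned to 5000 UMIs other than Sftpc, at random, so that a count per cell is comparable between cells; 316 cells with fewer were left out and 7690 entered. The thinned Atf3 count averaged 12.2 UMIs with a median of 10, 5% of cells at 2 or below and 5% at 30 or above. Its variance was 6.65 times its mean, against 1 for counting error alone. At E18.5 the mean was 2.94, and 178 of 1049 thinned cells had none. At P10 only 64 cells had no Atf3 UMI, so the planned split into cells with and without one set 7626 cells against 64: 149 of 3469 genes were at least 1.5-fold higher in the 7626 (4.3%) and 55 lower (1.59%). The highest ratios there were 3.36 for Ccn1 and 3.03 for Socs3, a brake on cytokine signalling, and the lowest 0.187 for Mfap4, 0.224 for Mgp and 0.379 for Eln, which turned to the opposite direction without cells carrying both Xist and Y-linked UMIs (3.97, 2.70 and 2.48).

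Because of that imbalance, the cells were also cut into low-, middle- and high-Atf3 groups of 2564, 2563 and 2563, chosen after the data were seen. Of 3456 genes, 121 were at least 1.5-fold higher in high-Atf3 cells (3.5%) and 17 lower (0.492%). Past the list limit, 686 of 8501 were higher (8.07%) and 691 lower (8.13%), with a median log2 ratio of -0.06. At E18.5 955 of 8501 were higher (11.2%) and 1019 lower (12%). Median UMIs per cell were 10087 in low-, 10639 in middle- and 10864 in high-Atf3 cells, and median mitochondrial shares were 1.71, 1.63 and 1.52%. Cells with Y-linked genes alone made up 18.6, 13.8 and 8.70% of the groups, and those with Xist alone 51.8, 55.6 and 61.7%. Within cells with Xist alone and within cells with Y-linked genes alone, immediate early genes kept nearly the same median log2 ratio, 1.00 and 0.92, against 0.94 in all cells.

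High-Atf3 cells had more RNA of other stress-responsive transcription factors. Klf6 stood at 502 CPM in low-, 794 in middle- and 1399 in high-Atf3 cells, a ratio of 2.79 (2.73 to 2.84). Egr1, a zinc-finger factor of the growth factor response, stood at 602, 895 and 1364 CPM, a ratio of 2.27. Maff, a small Maf factor, stood at 87.7, 134 and 232 CPM, a ratio of 2.64. Creb5, a bZIP factor, stood at 26.4, 39.2 and 81.0 CPM and had the highest ratio, 3.07 (2.82 to 3.36). The other genes of the top 12 were Ptpn14 (3.06), Ier5 (2.97), Klf2 (2.77), Ccn1 (2.47), Zfp36, which speeds mRNA decay (2.45), Zwint (2.32), the TWEAK receptor Tnfrsf12a (2.27) and Lgals3 (2.25). At E18.5, 8 of these 12 were at least 25% higher with Atf3 and 0 at least 20% lower, against 11.2% and 12% of all genes.

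Of 25 measured immediate early genes other than Atf3, 24 were past the list limit higher and 21 past 1.5-fold, with a median log2 ratio of 0.94. Fos, an AP-1 subunit, stood at 2191 CPM in low-, 3097 in middle- and 4197 in high-Atf3 cells, and its partner Jun at 2209, 2939 and 3950 CPM. At E18.5, 21 of 26 were past the list limit higher, with a median of 0.50, against 11.2% of all genes. Of transitional-state genes 7 of 11 were higher and 0 lower, with a median of 0.59. Krt8 stood at 221, 282 and 397 CPM, a ratio of 1.80, Hbegf, an EGF receptor ligand, at 136, 195 and 305 CPM, a ratio of 2.25, and Anxa1, annexin A1, at 175, 212 and 377 CPM, a ratio of 2.15. At E18.5, 4 of 14 transitional genes were higher. Clock genes had 5 of 12 higher and 1 lower (median 0.24), Nr1d1, the REV-ERB alpha repressor, at 16.3, 22.0 and 33.9 CPM among them, and 4 of 9 heat shock genes were higher.

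Some lipid genes were lower in high-Atf3 cells. Of 11 fatty acid synthesis genes 5 were past the list limit lower and 0 higher, with a median log2 ratio of -0.29. Scd1 stood at 1981 CPM in low-, 1753 in middle- and 1438 in high-Atf3 cells, a ratio of 0.726 (0.717 to 0.736), and Fads2, a fatty acid desaturase, at 19.4, 14.1 and 11.3 CPM, a ratio of 0.582. Fabp5 stood at 2294, 1996 and 1628 CPM, a ratio of 0.710, 1 of 3 lower among 9 lipid storage and uptake genes. Of 17 sterol enzymes 3 were lower, and of 9 sterol control genes 0 were past the list limit. Of 11 phospholipid synthesis genes 1 was higher and 1 lower. Chka, the higher one, ran the other way, at 720, 910 and 1246 CPM, a ratio of 1.73 (1.699 to 1.76). At E18.5 the fatty acid genes split, 3 of 11 higher and 1 lower, with Scd1 at a ratio of 1.05. Surfactant genes had 0 of 14 past the list limit, with Abca3 lowest among those named here, at 743, 689 and 601 CPM, a ratio of 0.809, and of 16 alveolar transcription factors 2 were higher and 3 lower.

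The 12 genes with the lowest ratios included Bmp1, a procollagen-cleaving protease, at 290 CPM in low-, 238 in middle- and 160 in high-Atf3 cells, a ratio of 0.553 (0.533 to 0.574). Snx25, a sorting nexin, stood at 764, 664 and 486 CPM, a ratio of 0.636, and Dapk1, a calmodulin-dependent death kinase, at 428, 375 and 278 CPM, a ratio of 0.649. AY036118 had the lowest ratio, 0.461, at 208, 156 and 95.8 CPM. The others were Zcchc4 (0.481), Pecam1 (0.556), the cAMP phosphodiesterase gene Pde4c (0.616), the gelsolin gene Gsn (0.629), Cyth3 (0.639), Eln (0.644), the RNA-binding protein gene Rbm47 (0.645) and the cation exchanger gene Slc24a4 (0.647). At E18.5, 3 of these 12 were at least 20% lower, against 12% of all genes, and Pecam1 (1.74) and Pde4c (1.95) were higher. In the lymphoid cells, a type that can express it, Pecam1 stood at 304 CPM, above every Atf3 group. Fibroblast markers summed to 131 CPM in low-, 70.8 in middle- and 60.5 in high-Atf3 cells, and erythroid markers to 105, 51.1 and 146 CPM. Their part in the result was not tested beyond leaving out cells with other types' markers. After that, 158 genes were higher and 41 lower, 118 and 13 of them shared with the counts above. The ratio was then 0.994 for Gsn and 0.868 for Eln. Pecam1 was itself a marker used there and had no ratio. The rest of the 12 lowest stayed past the list limit.

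ATF3 and related bZIP factors bind the cyclic AMP response element, whose palindromic form is TGACGTCA. The 250 bases before each gene's start were searched in the RefSeq promoter table (GRCm38.p6) on both strands; 24 of the 29 immediate early genes of the list had an entry, and a gene counts once if any of its listed starts has a match. TGACGTCA was found in 4 of these 24 (16.7%), Btg2, Dusp1, Maff and Ppp1r15a, against 1.77% of all 27025 genes of the table. The AP-1 motif TGANTCA was in 0 of the 24, against 7.82% of all genes, and the E-box CACGTG in 7, against 6.86%. A match is a description of letters and not a bound site. All 4 genes stood higher in high-Atf3 cells, but so did nearly all measured immediate early genes, so this direction does not set them apart. Btg2, an antiproliferative factor, stood at 408, 553 and 906 CPM in low-, middle- and high-Atf3 cells, a ratio of 2.22. Dusp1, a MAP kinase phosphatase, had a ratio of 1.91 and Maff 2.64. Ppp1r15a, a phosphatase subunit of the integrated stress response, had 1.95. Whether the element plays a part was not tested. The promoters of Btg2 (chr1:134079156-134079405, minus strand), Maff (chr15:79347270-79347519, plus strand, 1 of 3 starts in the table) and Ppp1r15a (chr7:45526269-45526518, minus strand) are printed to show where the element lies; capitals mark TGACGTCA, at -166, -29 and -12 from the start, and CACGTG in Maff.
Btg2: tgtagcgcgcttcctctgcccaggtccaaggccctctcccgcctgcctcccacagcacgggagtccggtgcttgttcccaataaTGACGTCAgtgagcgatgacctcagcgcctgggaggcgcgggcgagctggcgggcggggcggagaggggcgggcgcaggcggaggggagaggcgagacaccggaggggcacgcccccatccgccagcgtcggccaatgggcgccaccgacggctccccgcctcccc
Maff: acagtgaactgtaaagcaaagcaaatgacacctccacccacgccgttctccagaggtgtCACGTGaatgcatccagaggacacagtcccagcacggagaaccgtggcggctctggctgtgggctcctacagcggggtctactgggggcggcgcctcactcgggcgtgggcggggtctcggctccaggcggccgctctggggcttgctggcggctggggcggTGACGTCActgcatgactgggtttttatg
Ppp1r15a: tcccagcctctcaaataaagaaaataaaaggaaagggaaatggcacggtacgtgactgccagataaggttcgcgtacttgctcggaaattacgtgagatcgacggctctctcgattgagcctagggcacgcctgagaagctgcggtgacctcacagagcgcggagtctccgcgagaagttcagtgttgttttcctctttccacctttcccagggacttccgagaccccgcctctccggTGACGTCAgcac

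Lipid synthesis gave the third ordering. The thinned UMIs of 33 enzymes, 20 of sterol and 13 of fatty acid synthesis, averaged 25.1 per cell with a median of 23, 5% of cells at 11 or below and 5% at 48 or above. The variance was 6.14 times the mean. Cells were cut into low-, middle- and high-lipid groups of 2564, 2563 and 2563. The enzymes themselves chose the groups, so their values are a description: Scd1 stood at 901 CPM in low-, 1380 in middle- and 2910 in high-lipid cells, Fasn at 355, 459 and 583 CPM, and Fdps, farnesyl diphosphate synthase of the sterol pathway, at 97.2, 152 and 289 CPM. Sqle, squalene epoxidase, stood at 22.6, 34.9 and 51.5 CPM. Scd1 gave the most UMIs, so the groups lean on it.

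Few other genes differed. Of 3441 genes with the 33 enzymes left out, 12 were at least 1.5-fold higher in high-lipid cells (0.349%) and 27 lower (0.785%). Past the list limit, 186 of 8482 were higher (2.19%) and 543 lower (6.4%), with a median log2 ratio of -0.00. At E18.5 1111 of 8482 were higher (13.1%) and 1000 lower (11.8%). Median UMIs per cell were 10555 in low-, 10614 in middle- and 10402 in high-lipid cells, and median Sftpc shares were 14.8, 15.2 and 15.3%.

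Insig1, which holds SREBP in the endoplasmic reticulum when sterols are ample and is itself an SREBP target, led the genes with the highest ratios. It stood at 75.2 CPM in low-, 95.96 in middle- and 141 in high-lipid cells, a ratio of 1.88 (1.78 to 1.98). Fabp5 stood at 1483, 1769 and 2648 CPM, a ratio of 1.79 (1.76 to 1.81). Levels stepped up through the 3 groups in both. Gpam, the mitochondrial glycerol-3-phosphate acyltransferase, stood at 191, 231 and 300 CPM, a ratio of 1.57, and Pcyt2, of phosphatidylethanolamine synthesis, at 50.8, 60.3 and 82.4 CPM, a ratio of 1.62. Acoxl, an acyl-CoA oxidase-like gene, stood at 769, 974 and 1170 CPM, a ratio of 1.52. The other named genes were Lrg1 (1.704), Fam126b (1.59), the sterol-responsive gene Tmem97 (1.55), the sphingosine phosphatase gene Sgpp2 (1.54), the acyl-CoA-binding protein gene Dbi (1.53) and Rad51b (1.499). At E18.5 all 11 genes given here were higher in high-lipid cells, and all but Pcyt2 (1.19) by at least 25%, against 13.1% of all genes.

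Of 9 measured genes of sterol control, 5 were past the list limit higher and 1 lower, with a median log2 ratio of 0.32. Srebf1 and Srebf2, which encode the SREBP factors, had ratios of 1.35 and 1.251, and Stard4, a sterol carrier, 1.64. Mylip, an E3 ubiquitin ligase of sterol control, was the lower one at 0.763. Of 9 lipid storage and uptake genes 3 were higher and 0 lower (median 0.27), Plin2, the lipid droplet coat, at 171 CPM in low-, 194 in middle- and 235 in high-lipid cells. Npc2, the lysosomal cholesterol carrier, stood at 6842, 7611 and 8833 CPM, a ratio of 1.29. Of 11 phospholipid synthesis genes, 2 were higher, Gpam and Pcyt2, and 1 lower, Chka at a ratio of 0.745. Surfactant genes differed little: 0 of 14 were past the list limit higher and 1 lower. The sum of the list had a ratio of 1.01, with Abca3 at 1.19, Sftpb at 1.08 and Sftpa1 at 0.933. Sftpa1 gave 96.7 of the list's 231 UMIs per thinned cell, so the sum leans on it. The list's median log2 ratio lay between 0.098 and 0.165 under the alternative settings described below, slightly higher in high-lipid cells.

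SREBP factors bind sterol elements and E-boxes. TCACNCCAC, a form of the sterol element, was found in the 250 bases before the start of 1 of 15 matched sterol synthesis genes (of 20), Hmgcs1, HMG-CoA synthase, against 1.23% of all genes of the RefSeq table. CACGTG was found in 3 of the 15 and in 3 of 7 matched sterol control genes (of 11): Insig1, Scap and Abca1. It was found in 1 of 10 matched fatty acid synthesis genes (of 13), and in 6.86% of all genes of the table. With so few genes these shares are a description only. The promoters of Hmgcs1 (chr13:119690101-119690350, plus strand) and of Insig1 (chr5:28071162-28071411, plus strand), the gene with the highest ratio, are printed with the match in capitals, at -137 and -101 from the start.
Hmgcs1: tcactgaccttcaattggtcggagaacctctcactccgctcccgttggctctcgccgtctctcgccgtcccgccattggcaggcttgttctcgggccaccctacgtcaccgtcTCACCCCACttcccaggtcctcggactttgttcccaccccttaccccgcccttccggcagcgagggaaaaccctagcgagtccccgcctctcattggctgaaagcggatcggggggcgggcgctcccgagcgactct
Insig1: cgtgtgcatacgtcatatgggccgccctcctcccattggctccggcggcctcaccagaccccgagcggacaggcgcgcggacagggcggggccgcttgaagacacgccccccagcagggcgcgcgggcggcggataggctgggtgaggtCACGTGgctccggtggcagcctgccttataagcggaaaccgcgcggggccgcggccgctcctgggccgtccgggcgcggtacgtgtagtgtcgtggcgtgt

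MHC class II and interferon-response genes were lower in high-lipid cells, and other immune lists were mixed. All 6 MHC class II genes were past the list limit lower, with a median log2 ratio of -0.57; Cd74 stood at 1539 CPM in low-, 1280 in middle- and 1074 in high-lipid cells, a ratio of 0.698 (0.688 to 0.709). At E18.5, 2 of 3 measured class II genes were higher instead, with a median of 0.43. Class II RNA was scarce at that age, with Cd74 at 0.577 UMIs per thinned cell against 6.39 at P10. Of 9 interferon-response genes 6 were lower (median -0.53), Irf7 at 11.5, 10.3 and 7.14 CPM and Isg15 at 15.8, 15.5 and 10.51 CPM. Both lists depended on the sex transcripts. Among cells with Xist alone the medians were -0.72 for class II and -0.56 for interferon genes, and among cells with Y-linked genes alone they were -0.21 and -0.10, with 0 of 6 class II genes past the list limit. Of 6 MHC class I genes 2 were lower and 0 higher, and of 11 secreted defence genes 2 were higher and 2 lower.

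Of 26 immediate early genes 18 were past the list limit lower in high-lipid cells (median -0.36), and of 12 transitional genes 6 (median -0.33). Lower genes numbered 2 of 9 in heat shock, 1 of 14 in endoplasmic reticulum stress and 1 of 8 in the antioxidant list, with 0 higher in each. Anxa1 stood at 343 CPM in low-, 258 in middle- and 175 in high-lipid cells, a ratio of 0.510 (0.492 to 0.529). Cxcl1, a neutrophil chemokine of the defence list, stood at 55.5, 44.7 and 27.6 CPM, a ratio of 0.498. The 12 lowest ratios among genes of 50 CPM were those of Mgp (0.446), Pdzd2 (0.493), Anxa1, Creb5 (0.513), S100a6 (0.539), Eln (0.553), Ndnf (0.554), the clusterin gene Clu (0.561), Ptpn14 (0.569), Lgals3 (0.570), the chemokine gene Cxcl2 (0.584) and the kinase gene Plk2 (0.584). At E18.5, 6 of the 12 were at least 20% lower, against 11.8% of all genes. Creb5 had a ratio of 1.37 there, with an interval that includes 1 (0.907 to 2.08). Fibroblast markers summed to 128 CPM in low-, 63.2 in middle- and 64.2 in high-lipid cells, and endothelial markers to 178, 147 and 119 CPM. Their part in the result was not tested beyond leaving out cells with other types' markers. After that, 40 genes were lower, 19 of them among the 27, and 18 higher, 11 of them among the 12 higher. The ratio was then 0.853 for Mgp and 0.881 for Eln, while the rest of the 12 lowest stayed past the list limit.

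**Figure D4:**
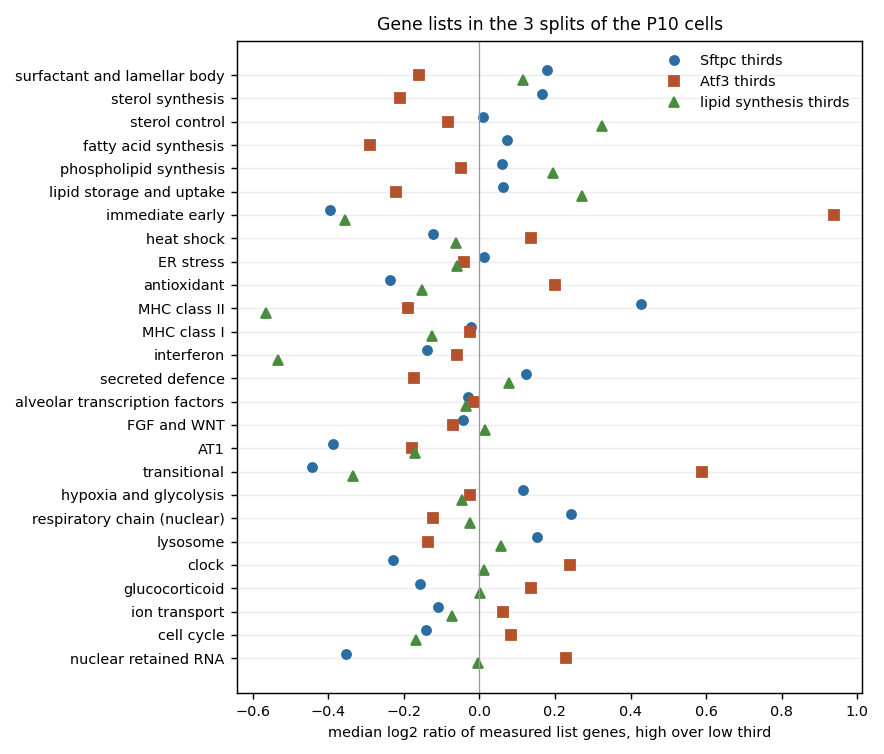
Median log2 ratio of the measured genes of each list, high over low group (horizontal axis), for the splits of the P10 cells by Sftpc, by Atf3 and by lipid synthesis enzymes; each row is 1 list. Immediate early genes lie at -0.40, 0.94 and -0.36 in the 3 splits, and MHC class II genes at 0.43, -0.19 and -0.57.

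The 3 orderings overlapped in part. Of 2616 high-Sftpc cells 483 were high-Atf3 cells, and of 2464 low-Sftpc cells 1171 were (47.5%). High-lipid cells made up 23.8% of high-Atf3 cells (22.2 to 25.5%) and 41.0% of low-Atf3 cells (39.1 to 43.0%). High-lipid cells made up 35.3% of high-Sftpc cells and 28.7% of low-Sftpc cells. Across the 7690 thinned cells, which share 1 library and 1 depth, fatty acid and sterol enzymes had a correlation of 0.41, fatty acid and lipid storage genes 0.52, and immediate early and transitional genes 0.45. Immediate early and fatty acid synthesis genes had -0.24. Single genes weigh heavily in these sums. Fabp5 gave 9.93 of the 16.5 UMIs per cell of the lipid storage list, and Scd1 8.66 of the 19.6 of the fatty acid list. Fabp5 alone had a correlation of 0.51 with the fatty acid list. Counts per cell are low, so these values describe the cells and carry no test.

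Lyz1, lysozyme 1, split the cells in another way. Its thinned count fell into 2 ranges: 5500 cells (71.5%) had 10 UMIs or fewer, with a median of 3, and 1813 (23.6%) had 20 or more, with a median of 52, while 377 lay between. These limits were chosen after the data were seen. The share of Lyz1-high cells varied little with the other orderings: it was 21.9, 24.9 and 23.8% in low-, middle- and high-Sftpc cells, 22.8, 24.7 and 23.3% in low-, middle- and high-Atf3 cells, and 21.6, 24.97 and 24.1% in low-, middle- and high-lipid cells. Among cells with Xist alone it was 24.1% and with Y-linked genes alone 21.5%. At E18.5, 461 of 1049 cells (43.9%) had 20 or more.

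Lyz1 stood at 10950 CPM in Lyz1-high cells and 727 in Lyz1-low cells, against 459 in the lymphoid cells. Scgb1a1, read above as background, was far higher in the lymphoid cells than in the set, so a lymphoid level can overstate free RNA in these cells. The part of free RNA in the low range was not tested. Lyz2, a closely related paralog with a nearly identical sequence, ran the other way, at 14334 CPM in Lyz1-high cells and 20987 in Lyz1-low cells, a ratio of 0.683 (0.680 to 0.686). The sum of both was 25284 CPM in Lyz1-high cells and 21714 in Lyz1-low cells, a ratio of 1.16. How reads shared by the 2 genes were counted bears on this, which makes the split between them uncertain. At E18.5 Lyz2 stood at 7406 CPM in Lyz1-high cells and 10524 in Lyz1-low cells, a ratio of 0.704. Of 3461 genes with Lyz1 left out, 0 were 1.5-fold higher and 0 lower (0% each), and the highest ratio was 1.21, of the imprinted noncoding RNA Rian. After Lyz2 the next lowest of the named genes was Scgb1a1, at 0.803. Median UMIs per cell were 10882 in Lyz1-high and 10354 in Lyz1-low cells.

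**Figure D5:**
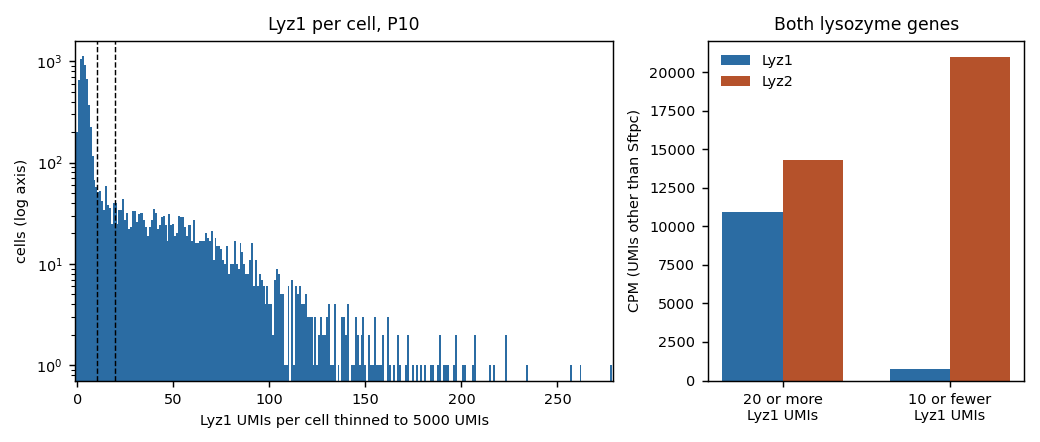
Left, number of P10 cells (vertical log axis) by Lyz1 UMIs per cell thinned to 5000 UMIs (horizontal axis), with the limits at 10 and 20. Right, CPM of Lyz1 and Lyz2 in cells with 20 or more and with 10 or fewer Lyz1 UMIs; Lyz1 stands at 10950 and 727 CPM and Lyz2 at 14334 and 20987 CPM.

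Across genes, the spread between cells was taken as the squared coefficient of variation beyond counting error, in the thinned cells. Over 1735 genes with a mean of at least 0.5 UMIs its median was 0.203 and its 95th percentile 0.924. Surfactant genes were among the even ones: Sftpb had 0.0441, Slc34a2 0.0623, Sftpa1 0.0675 and Abca3 0.0932. Atf3 had 0.463, Scd1 0.685, Cd74 0.514 and Lyz1 2.82. Scgb1a1 came first with 11.3, set by few cells: its median was 8 UMIs and its highest count 2227. Col12a1, a fibril-associated collagen, had 6.21 and was seen in 23.6% of cells, with 1% of cells at 7 UMIs or more. Ppargc1a, the coactivator of mitochondrial biogenesis, had 4.11. AY036118 (5.66), Slit3 (3.61), Zmat4 (3.01), Hdac9 (2.94), Anxa1 (2.91), Fstl4 (2.81), Lrg1 (2.45), Fmo2 (2.32), Fhit (2.29), Ccn1 (2.01) and Thbs1 (1.95) complete the first 15.

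By list, summed thinned counts per cell had a variance of 20.8 times the mean for immediate early genes, 14.7 for secreted defence, 10.48 for nuclear-retained RNAs, 6.72 for surfactant genes, 6.43 for MHC class II and 5.55 for fatty acid synthesis. This quantity grows with the mean, which was 97.9 UMIs for immediate early, 157 for secreted defence, 161 for nuclear-retained, 231 for surfactant, 9.11 for class II and 19.6 for fatty acid synthesis genes, so its size does not rank lists of unlike levels. Respiratory chain genes were at 1.29 with a mean of 18.3 UMIs, and genes of endoplasmic reticulum stress at 1.37 with a mean of 8.49, where counting alone gives 1. At a similar mean, respiratory chain genes were thus more even than fatty acid synthesis genes (5.55 at 19.6 UMIs). Likewise, endoplasmic reticulum stress genes were more even than class II genes (6.43 at 9.11 UMIs). The 2 lists are not ranked against the lists of higher means. The first 5 principal components of the 2000 most variable genes held 0.99, 0.90, 0.58, 0.51 and 0.48% of the variance. Genes with means as low as 0.05 UMIs entered and counting error was not taken out, so these shares do not show whether 1 axis dominates. On the first component, Lyz1, Bmp1 and AY036118 lay at one end and Nfkbia, Anxa1, Hbegf and Klf2 at the other, and cell scores had a correlation of -0.55 with Atf3, -0.61 with immediate early genes and 0.31 with the Sftpc share. The second was mostly Lyz1, with a loading of 0.9, and there Nfkbia (0.117), Anxa1, Hbegf and Klf2 lay at the same end as Lyz1. The 2 components together therefore do not set Lyz1 against these genes. H2-Aa, H2-Ab1 and H2-Eb1 gathered at one end of the third component, opposite Timp3 and the carboxypeptidase gene Cpm.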

How the data were processed

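What the authors deposited for each library is a matrix of raw UMI counts. Cell Ranger 7.0.1 made it, per the file headers, on the build mm10, per the submitters' processing notes, where Seurat 4.0.0 also appears with no role. The sources used here do not say if reads in introns were counted. Cells and gene lists (26 pathway and 15 marker lists) were chosen with earlier results of these data known; the split by Atf3 level, the Lyz1 groups and the lymphoid cells were added after seeing the data. Counts were summed over each group of cells and scaled to 1000000 UMIs other than Sftpc, with exact conditional binomial 95% intervals for ratios. Genes that formed a split were left out of its counts. Named genes are the 12 highest and 12 lowest ratios with a mean of 50 CPM or more; 1 of them is not reported here. Thinning drew 5000 UMIs per cell without replacement. With 1 library per age no test was made. Alternatives changed the denominator, the group limits, the cells and the filters. Scripts were tested on simulated data and used Python 3.11.15, numpy 2.4.6, scipy 1.17.1, pandas 2.3.3, scikit-learn 1.9.0 and matplotlib 3.10.9. Promoter sequences are from RefSeq on GRCm38.p6.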

Additional observations from a re-analysis of the deposited data

Results flagged for a closer look

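Some differences between the groups of cells ran in opposite directions at the 2 ages; with 1 library each, the difference between ages was not tested. In the Atf3 split, Pecam1 had a ratio of 0.556 at P10 against 1.739 at E18.5, and Pde4c had 0.616 at P10 against 1.95 at E18.5. In the lipid split, Creb5 had a ratio of 0.513 at P10 against 1.37 at E18.5. The E18.5 interval for Creb5 was 0.907 to 2.08 and includes 1, at 11.7 CPM in low- and 16.0 in high-lipid cells. Counting error alone thus leaves its E18.5 direction unsettled. In the same split the MHC class II list had a median log2 ratio of -0.57 at P10 against 0.4253 at E18.5. That list had 6 measured genes at P10 and 3 at E18.5. Class II RNA was scarce at E18.5: Cd74 averaged 0.577 and H2-Aa 0.0524 UMIs per thinned cell, against 6.39 and 1.23 at P10. The E18.5 median thus rests on few counts. The median log2 ratio of erythroid markers was -1.65 at P10 against 0.7255 at E18.5 in the Sftpc split, 0.51 at P10 against -0.5551 at E18.5 in the Atf3 split, and -1.94 at P10 against 0.6179 at E18.5 in the lipid split. At P10 the summed erythroid count per cell had a variance of 429 times its mean.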

How the results depend on the processing

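Of 126 counts of genes past 1.5-fold under an alternative, 89 were within 1.5 times the reported count, and of 1511 ratios of named genes 1409 were within the list limit of the reported ratio, 93 moved further and 9 reversed. Named genes past the list limit in their reported direction under every alternative run were 19 of 24 in the Sftpc split, 19 in the split with and without Atf3, 21 in the split by Atf3 level, 22 in the lipid split and 1 in the Lyz1 groups.

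In the Sftpc split (2 higher, 43 lower), the genes higher were 1 and lower 74 when scaled to all UMIs. They were 4 higher with surfactant and mitochondrial genes also taken out, 19 higher and 133 lower between the outer sixths, 7 higher among cells with Xist alone and 7 with Y-linked genes alone. They were 98 lower at a floor of 20 CPM, 4 higher at an Sftpc limit of 5%, and 8 higher without cells holding other types' markers. In the split with and without Atf3 (149 and 55), 33 were lower when scaled to all UMIs and 154 within bins of depth, 226 higher and 175 lower among cells with Xist alone, and 391 higher and 300 lower at 20 CPM. In the split by Atf3 level (121 and 17), 186 were higher and 55 lower between outer sixths, 187 and 42 at 20 CPM, and 41 lower without other types' markers. In the lipid split (12 and 27), 30 were higher and 74 lower between outer sixths, 20 higher with Y-linked genes alone, and 20 higher and 77 lower at 20 CPM. In the Lyz1 groups (0 and 0), at most 1 was higher and 1 lower, except for 6 lower among cells with Y-linked genes alone.

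The reversed ratios were 1.33 for Mgp and 1.05 for Eln in the Sftpc split without cells holding other types' markers. In the split with and without Atf3 they were 3.64 for Mfap4, 2.29 for Mgp, 2.28 for Eln and 1.08 for Nup210l among cells with Xist alone, and 3.97 for Mfap4, 2.70 for Mgp and 2.48 for Eln without cells holding both Xist and Y-linked UMIs. That split rests on 64 cells. The cause of each move was not tested, beyond the wider limits, lower floors and fewer cells that the alternatives themselves set.

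Leaving out every cell with a marker UMI of another type, Scgb1a1 included, would keep 12 cells and was not run. The split with and without Atf3 was not run among cells with Y-linked genes alone or without other types' markers, for want of cells. No paired analysis was possible because each age has 1 library. Depth limits the lists to genes at 10 CPM or more.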
